A study of Mus musculus with 11 samples.

Results

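The genes described here are 38 genes of DNA replication and S phase, the part of the cell cycle in which chromosomes are copied. They were chosen by annotated gene symbol from a list of known replication genes, with the probe of highest mean intensity standing for each gene. All 38 had a probe among the 19057 genes on the array. Of these, 33 passed the filter on dim features and were tested, among 14727 tested features in all. The 5 members below the filter limit were Pcna, Orc1, Pola1, Prim1 and Slbp.

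Expression was measured in mammary tumours that arose in 12-week-old female mice carrying PyMT, the middle T oncogene of polyoma virus. There were 6 tumours labelled PyMT, from mice wild type for the added allele, and 5 labelled PyMT/SIRT6, from mice that also carried the Sirt6BAC allele, which overexpresses functional SIRT6 from a bacterial artificial chromosome (a large cloned piece of genomic DNA). All 11 tumours came from mice that carried the oncogene, and no group lacked it. The labels name neither the promoter that drives the oncogene nor the cells in which Sirt6BAC is active. Nor do they state whether any mouse gave more than 1 tumour, and the p-values cover only the spread between the samples at hand. The design poses 1 question for these genes, namely whether they differ between tumours with and without the added Sirt6 allele.

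Replication starts when the origin recognition complex, with its subunits Orc1 and Orc6, and the loading factors Cdc6 and Cdt1 place the ring of MCM2-7 proteins on DNA in G1. In S phase Cdc45 and the GINS complex join the ring to form the moving helicase, with Mcm10 acting at its activation. Primase and the polymerases then copy the strands, held on DNA by the sliding clamp PCNA, which the RFC complex loads, and Fen1 and Lig1 join the fragments of the lagging strand. Enzymes such as ribonucleotide reductase supply the nucleotides. The transcription factors of the E2F family switch on many of these genes as cells leave G1, so the RNA of the group is widely used as a readout of how many cells of a tissue are dividing.

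Values below are log2 array intensities, and a change is PyMT/SIRT6 minus PyMT on that scale. Levels of different genes are not compared, since probes differ in brightness. The labels' added allele was visible in the RNA, as Sirt6 lay between 7.64 and 7.88 in PyMT tumours and between 8.19 and 8.64 in PyMT/SIRT6 tumours. The groups did not overlap (change 0.61 ± 0.09, standard error, or 1.52-fold; limma adjusted p = 0.0574 over all features; two-sided exact permutation p = 0.002165, the smallest that 462 splits allow). The luminal epithelial keratin Krt8 (12.23 to 13.40) and the adhesion gene Cdh1 (8.92 to 9.74) were high in every tumour, while the probe of Epcam (7.15 to 7.35) stayed near the filter limit of 7.31. The skeletal muscle markers varied widely, with their mean above 9 in PyMT replicate 5 and in PyMT/SIRT6 replicates 1, 4 and 5. In whole tumour RNA, fewer cells of a type and less RNA per cell cannot be told apart.

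None of the 33 tested replication genes passed the test for a change between the genotypes. In limma's test with Benjamini-Hochberg adjustment 0 of 33 passed a threshold of 0.05, against 2 of all 14727 features (0.0136%), and the members' adjusted p ran from 0.983 to 0.989. At an unadjusted p under 0.05 the count was also 0, where 4.43% of all features lay. The smallest unadjusted p was 0.0599, for Gins3. In 0 of the 33 genes did the groups separate without overlap, against 0.489% of all features.

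The estimated changes were small. They ran from a fall by 0.20 for the DNA ligase gene Lig1 to 0.10 for the helicase gene Gins4, which is 0.870-fold to 1.07-fold. Values were above 0 for 11 genes (33.3%) and below 0 for 22, where 46.9% of all features lay above 0 and 53.1% below. The median change was −0.05, against −0.01 over all features. That count rests on single tumours. It went to 17 genes above 0 (51.5%, against 47.3% of all features) without PyMT replicate 1. Without PyMT replicate 5 it was 4 (12.1%, against 46.9%). The count was 6 (18.2%, against 48.9% of all features) without the 4 tumours high in skeletal muscle markers. Only replicates 2 and 3 of PyMT/SIRT6 were left in that setting.

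All 33 of the 95% intervals held 0. At the median they reached 0.28 to either side of the estimate, from 0.05 for Gins3 to 0.45 for Rrm2. The lowest bound was −0.60, for Rrm2, and the highest was 0.53, for Orc6. For each gene, changes within its own interval were not told apart from 0.

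**Figure D1:**
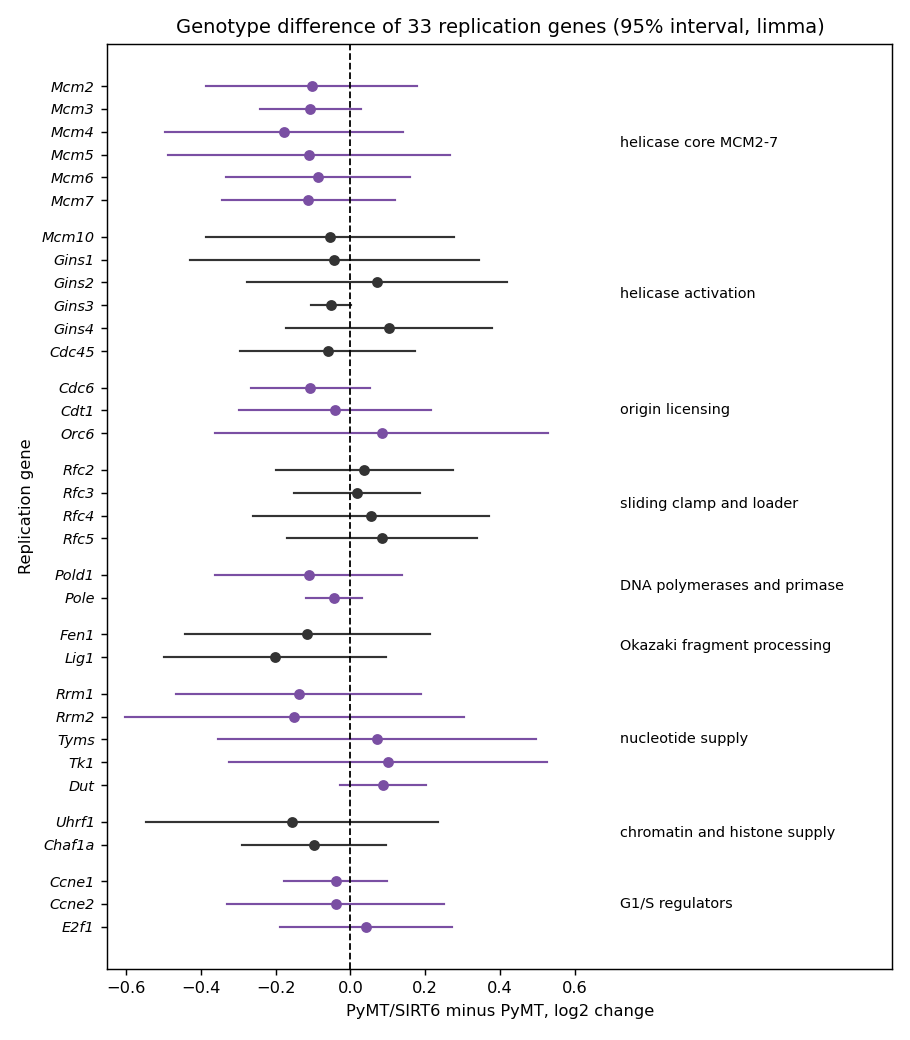
Genotype change of the 33 tested replication genes, ordered by role. The x axis is PyMT/SIRT6 minus PyMT in log2 intensity, points are limma estimates and bars their 95% intervals over 6 and 5 tumours, with point colour alternating between role groups. Every bar crosses the dashed line at 0, and the points lie between −0.20 and 0.10.

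The 6 genes of the MCM2-7 ring all had estimates below 0, from −0.18 to −0.09, with none past the test. Mcm2, a ring subunit, lay at 8.24, 8.64 and 8.94 (lowest, median and highest) in PyMT tumours. In PyMT/SIRT6 tumours 1 to 5 it was at 8.54, 8.68, 8.72, 8.48 and 8.29. The 2 lowest values were in PyMT replicate 6 and PyMT/SIRT6 replicate 5 and the 2 highest in PyMT replicates 2 and 1, so the groups overlapped over most of their range (−0.10 ± 0.13).

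Mcm6 was the ring gene most like the other members. It lay at 8.90, 9.16 and 9.44 in PyMT tumours and at 9.17, 9.10, 9.17, 9.03 and 8.86 in PyMT/SIRT6 tumours. PyMT replicate 1 was highest and PyMT/SIRT6 replicate 5 lowest, and the change of −0.09 ± 0.11 was within its error. Mcm3 had the smallest unadjusted p of the ring, at 7.77, 7.85 and 8.07 in PyMT tumours against 7.81, 7.81, 7.81, 7.73 and 7.72. Its highest PyMT tumour was replicate 3, and all 5 PyMT/SIRT6 values lay inside or just below the PyMT range (−0.11 ± 0.06).

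Among the 6 genes that act in helicase activation, 4 estimates were below 0 and 2 above, from −0.06 to 0.10. Mcm10 lay at 8.24, 8.51 and 9.20 in PyMT tumours and at 8.77, 8.54, 8.67, 8.52 and 8.45 in PyMT/SIRT6 tumours. PyMT replicates 1 and 3 stood above every PyMT/SIRT6 tumour and PyMT replicate 5 below them all, so the PyMT range contained the other group (−0.05 ± 0.15). Gins4, a subunit of GINS, lay at 10.41, 10.78 and 10.91 against 11.02, 10.52, 10.90, 10.97 and 10.70. Its highest tumour was PyMT/SIRT6 replicate 1 and its lowest PyMT replicate 2 (0.10 ± 0.13).

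Gins3 had the smallest unadjusted p of all members and was also among the dimmest. It lay at 7.36, 7.42 and 7.43 in PyMT tumours and at 7.37, 7.38, 7.39, 7.31 and 7.35 in PyMT/SIRT6 tumours. Only PyMT replicate 2 fell within the range of the PyMT/SIRT6 tumours, and the highest and lowest tumours differed 1.09-fold (−0.05 ± 0.03). No subtracted background was visible in the values, so the fold change of so dim a probe may understate any change in RNA. The means of Pole and Ccne1 were also below 7.5, and those of 10 tested members below 8.

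Of the licensing genes, Cdc6 lay at 7.37, 7.56 and 7.87 in PyMT tumours and at 7.54, 7.42, 7.44, 7.55 and 7.36 in PyMT/SIRT6 tumours. PyMT replicate 1 stood apart above all other tumours, which overlapped (−0.11 ± 0.07). The origin recognition gene Orc6 was among the most variable members, at 9.14, 9.99 and 10.34 in PyMT tumours and 9.95, 9.43, 10.05, 10.21 and 9.89 in PyMT/SIRT6 tumours. PyMT replicates 5 and 2 and PyMT/SIRT6 replicate 2 were low and PyMT replicate 3 high, a pattern that cuts across the genotypes (0.08 ± 0.21). Its estimate turned to −0.22 ± 0.25 without the 4 tumours high in muscle markers. Cdt1 had an estimate below 0, and Orc1, dimmer than the filter limit, was not tested.

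The 4 tested members of the clamp loader had estimates above 0, from 0.02 to 0.08, none past the test. The loader's large subunit gene Rfc1, which is outside the set, was at −0.26 ± 0.13. Rfc5 lay at 8.60, 8.86 and 9.13 in PyMT tumours and at 9.10, 8.73, 9.08, 9.04 and 8.88 in PyMT/SIRT6 tumours. Its lowest values, in PyMT replicates 5 and 2 and PyMT/SIRT6 replicate 2, were the tumours also low in Orc6 (0.08 ± 0.12). Without the 4 tumours high in muscle markers it was at −0.03 ± 0.17. Rfc2 lay at 10.05, 10.14 and 10.31 against 10.09, 10.46, 10.34, 9.98 and 10.17, with both its highest and its lowest tumour in the PyMT/SIRT6 group (0.04 ± 0.11).

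The Rfc2 values rest on a probe that did not vary like the gene's other probes. Over the 11 tumours its correlations with the other 3 were −0.18, −0.08 and 0.01, whereas those 3 correlated with each other at 0.744 to 0.862 and with the mean of the other members at 0.579 to 0.768. What the used probe measures is therefore uncertain, and the 3 dimmer probes vary with the rest of the group. For comparison, the 2 other probes of Gins2 followed the used one, with r of 0.980 and 0.915. Across the 23 further probes of 14 members above the filter limit, 15 had an estimate of the same sign as the used probe, 12 correlated with it above 0.6 and 4 below 0.

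Pcna, the sliding clamp itself and a common proliferation marker, could not be read here. Its single probe stayed between 7.12 and 7.38 in all tumours, near the bottom of the scale, where the lowest intensity was 6.87. Slbp, which binds histone messenger RNA, lay at 6.96 to 7.05. Such values set no level for these genes.

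Of the polymerase genes, Pold1, the catalytic subunit of polymerase delta, lay at 8.75, 8.90 and 9.27 in PyMT tumours and at 9.07, 8.94, 8.86, 8.78 and 8.62 in PyMT/SIRT6 tumours. PyMT replicate 1 was highest and PyMT/SIRT6 replicate 5 lowest (−0.11 ± 0.12). Pole, the catalytic subunit of polymerase epsilon, lay at 7.34, 7.43 and 7.46 against 7.36, 7.41, 7.34, 7.44 and 7.27, a dim probe with little spread (−0.04 ± 0.03).

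Lig1 and Fen1, which process Okazaki fragments, both had estimates below 0. Lig1 lay at 8.50, 8.67 and 9.23 in PyMT tumours and at 8.57, 8.72, 8.70, 8.44 and 8.47 in PyMT/SIRT6 tumours. The estimate of −0.20 ± 0.14, the lowest among the members, came with 2 high tumours, PyMT replicates 1 and 2, and the other 9 overlapped. Fen1 lay at 9.75, 10.07 and 10.47 against 10.06, 10.05, 10.30, 9.78 and 9.70, again with PyMT replicates 1 and 2 highest (−0.12 ± 0.15).

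Genes of nucleotide supply held the largest spread between tumours. Rrm2, the regulated subunit of ribonucleotide reductase, lay at 7.78, 8.34 and 8.98 in PyMT tumours and at 8.10, 8.17, 8.76, 8.10 and 8.16 in PyMT/SIRT6 tumours. PyMT replicates 1 and 3 and PyMT/SIRT6 replicate 3 were high and PyMT replicate 5 low (−0.15 ± 0.21). The thymidine kinase gene Tk1 lay at 8.78, 9.37 and 10.11 against 9.76, 9.42, 9.50, 9.56 and 9.27. Its highest tumour, PyMT replicate 3, exceeded its lowest, PyMT replicate 5, 2.51-fold, the widest range among the members, and the change was 0.10 ± 0.20.

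Thymidylate synthase, Tyms, followed the same order at the extremes. It lay at 9.25, 9.98 and 10.48 in PyMT tumours and at 10.23, 9.61, 10.19, 10.05 and 10.16 in PyMT/SIRT6 tumours, with PyMT replicate 3 highest and PyMT replicate 5 lowest (0.07 ± 0.20). Both thymidylate genes turned sign without the 4 tumours high in muscle markers, Tyms to −0.22 ± 0.23 and Tk1 to −0.06 ± 0.25. Dut, which removes dUTP, had the smallest unadjusted p among members with a positive estimate. It lay at 7.48, 7.56 and 7.72 against 7.69, 7.78, 7.69, 7.63 and 7.59 (0.09 ± 0.05), with PyMT replicates 1 and 3 inside the PyMT/SIRT6 range.

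Uhrf1, which recruits the maintenance DNA methyltransferase, lay at 8.79, 9.32 and 9.74 in PyMT tumours and at 9.32, 9.62, 9.20, 8.99 and 8.82 in PyMT/SIRT6 tumours. Chaf1a, a subunit of the histone chaperone that follows the fork, lay at 7.74, 7.998 and 8.15 against 7.97, 7.98, 7.88, 7.95 and 7.60. In both genes PyMT replicate 6 and PyMT/SIRT6 replicate 5 were the 2 lowest tumours, 1 of each genotype (−0.16 ± 0.18 for Uhrf1 and −0.10 ± 0.09 for Chaf1a).

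Of the G1/S regulators, Ccne2, a cyclin partner of Cdk2, lay at 7.36, 7.65 and 8.19 in PyMT tumours and at 7.92, 7.56, 7.69, 7.69 and 7.503 in PyMT/SIRT6 tumours (−0.04 ± 0.13). The transcription factor gene E2f1 lay at 8.19, 8.41 and 8.75 against 8.66, 8.60, 8.48, 8.33 and 8.32 (0.04 ± 0.11). PyMT replicate 5 was the lowest tumour for both, and the sign of both estimates changed when single tumours were left out.

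Tumours differed from each other more than genotypes did. The mean over the 33 tested members was 9.02, 8.77, 8.92, 8.72, 8.51 and 8.65 in PyMT replicates 1 to 6. In PyMT/SIRT6 replicates 1 to 5 it was 8.80, 8.69, 8.82, 8.70 and 8.60. Replicates 1 to 3 of both genotypes come first in sample order. In PyMT they all lay above replicates 4 to 6 (8.77 to 9.02 against 8.51 to 8.72). In PyMT/SIRT6 they spanned 8.69 to 8.82, against 8.70 and 8.60 in replicates 4 and 5. A part of sample order in these differences was not tested. The group means of 8.76 ± 0.18 (SD, n = 6) and 8.72 ± 0.09 (SD, n = 5) differed by −0.04, less than either SD, and genotype held 2.37% of the variance between tumours. The highest and lowest tumours, PyMT replicates 1 and 5, differed by 0.51, or 1.42-fold in the geometric mean.

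The same tumours were extreme for many members. PyMT replicate 1 lay above the gene's own mean in 32 of 33 members and held the highest value of 17, and PyMT replicate 3 held the highest of 8. At the low end, PyMT replicate 5 lay above the mean for 3 members and held the lowest value of 15, and PyMT/SIRT6 replicate 5 for 5 members and the lowest of 8. The SD was larger among the PyMT tumours for 26 of the 33 genes, and the share over all features is not given here. PyMT replicates 1 and 5 held many of the extremes, so these genes are not separate observations.

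**Figure D2:**
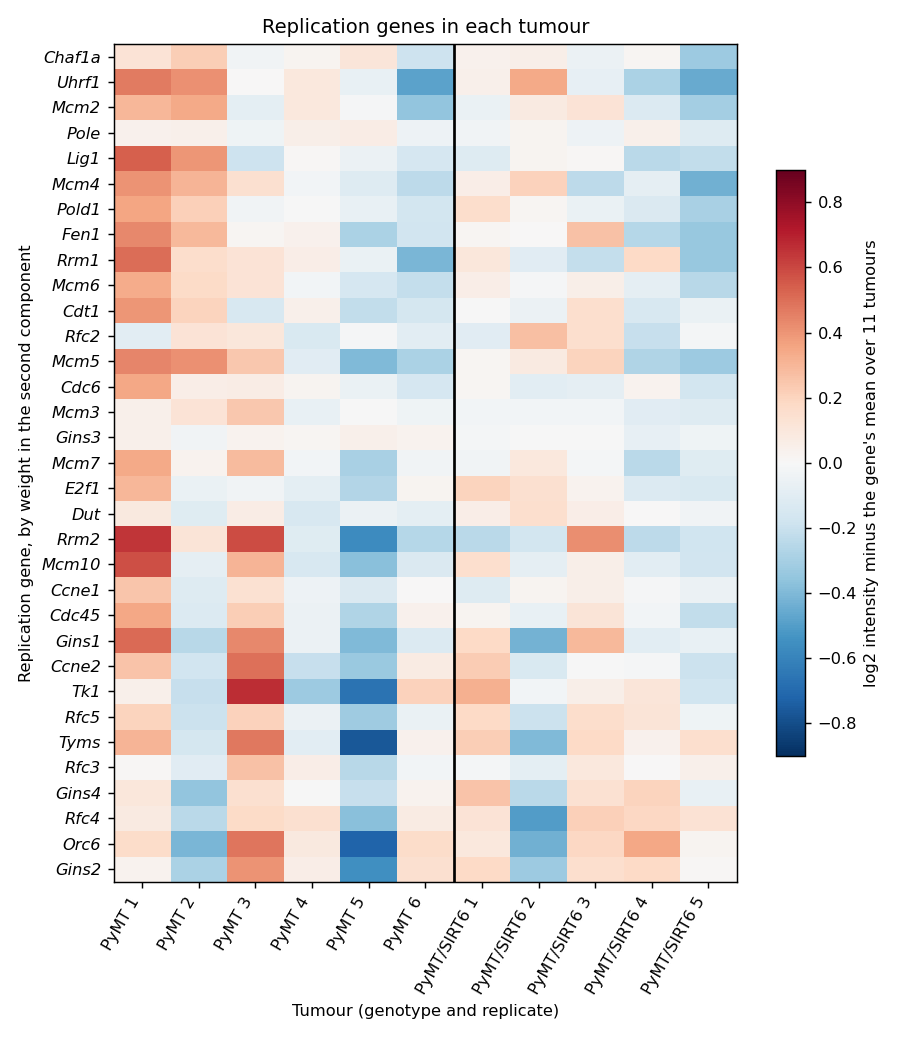
Each tested replication gene (rows) in each tumour (columns, PyMT left of the line and PyMT/SIRT6 right of it), coloured by log2 intensity minus that gene's mean over 11 tumours. Rows are ordered by weight in the second principal component. PyMT replicate 1 is above the mean in 32 of 33 rows, while PyMT replicate 5 is near the mean in the upper rows and blue in the lower ones.

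The members varied together, though unevenly. Over the 11 tumours the 528 pairs of tested members had a median Pearson r of 0.426, and 32.4% of pairs were above 0.6, where all pairs of tested genes had a median of 0.0046 and 6.3% above 0.6. Pairs within a tumour share its library and its cell makeup, so these are descriptions with n = 11 and no test. Without PyMT replicate 1 the median was 0.296. The pair most alike was Gins2 and Orc6 (0.980), followed by Cdc6 and Rrm1 (0.948), and Mcm5 had 0.935 with both Mcm6 and Fen1. At the other extreme, Pole and Tyms had −0.546 and Rfc2 and Rfc4 −0.543.

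Mcm10 was the member closest to the rest, with an r of 0.955 to the mean of the other 32. Cdc45 (0.915), Rrm2 (0.880), Mcm6 (0.879) and Mcm7 (0.840) came next. Pole (−0.004), Rfc2 (0.023), Gins3 (0.181) and Chaf1a (0.281) were least like the others, and Pole and Gins3 were among the dimmest probes. In all, 18 members exceeded 0.6 with the mean of the others, where 8.63% of the 11336 other tested genes did so with the mean of the members.

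By role, the 15 pairs inside the MCM2-7 ring had a median r of 0.746, and ring genes had 0.736 with the Okazaki genes Fen1 and Lig1 and 0.737 with Uhrf1 and Chaf1a. With the clamp loader the ring had 0.206 and with the helicase activators 0.313. By these medians the RNA of ring genes varied more with the 2 Okazaki and 2 chromatin genes than with the helicase activators. Single pairs were uneven, from −0.34 to 0.85 over the 36 with the activators. They ran from 0.33 to 0.93 with the Okazaki genes and from 0.17 to 0.91 with the chromatin genes.

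Much of that unevenness lay along a single further axis. In a principal component analysis of the standardised members the first component held 44.7% of the variance, the second 28.4% and the third 8.03%. At one end of the second component stood Chaf1a, Uhrf1, Mcm2, Pole, Lig1, Mcm4, Pold1 and Fen1, named here the Mcm2 end. At the other stood Gins2, Orc6, Rfc4, Gins4, Rfc3, Tyms, Rfc5 and Tk1, the Orc6 end. These 8 and 8 genes were picked by their weights in the same data, so what follows describes them without a test.

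Within the Mcm2 end the median r was 0.814 and within the Orc6 end 0.836, while the 64 pairs between them had a median of −0.171. Leaving out single tumours kept that median between −0.31 and −0.04. Genes were thus close to each other within an end and not across the ends.

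**Figure D3:**
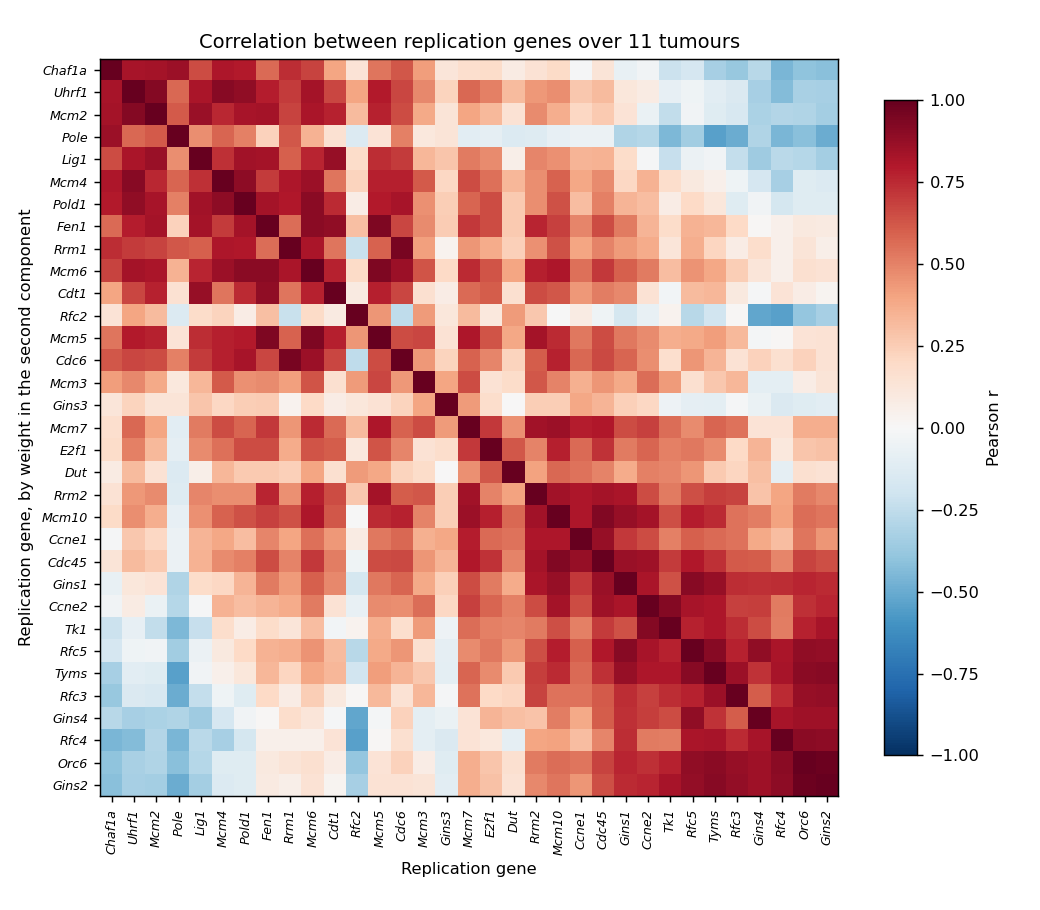
Pearson correlation over 11 tumours for every pair of the 33 tested replication genes, with both axes ordered by weight in the second principal component. The red blocks at the upper left and lower right are the Mcm2 end and the Orc6 end, and the blue corners are pairs between them, such as Pole and Tyms at −0.546.

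The mean of the Mcm2 end was 9.24, 9.19, 8.88, 8.95, 8.86 and 8.69 in PyMT replicates 1 to 6 and 8.92, 9.01, 8.90, 8.78 and 8.60 in PyMT/SIRT6 replicates 1 to 5. The mean of the Orc6 end was 9.37, 9.00, 9.60, 9.23, 8.77 and 9.32 and then 9.42, 8.97, 9.40, 9.40 and 9.26. PyMT replicate 1 was the highest tumour at the Mcm2 end and PyMT replicate 3 at the Orc6 end. PyMT replicate 2 and PyMT/SIRT6 replicate 2 were high at the Mcm2 end and low at the Orc6 end, while PyMT/SIRT6 replicate 4 was low at the former and high at the latter.

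Estimates of the genotype change had opposite signs at the ends. They were below 0 for all 8 genes of the Mcm2 end and above 0 for all 8 of the Orc6 end, none of them past the test. Because genes of an end vary together and were picked from these tumours, 8 like signs are far fewer than 8 separate observations. Without the 4 tumours high in muscle markers, which left only replicates 2 and 3 of PyMT/SIRT6, some signs turned. The 6 members above 0 there were Mcm2, Rfc2, Uhrf1, Fen1, Dut and E2f1. All 8 genes of the Orc6 end were thus below 0, and Mcm2, Uhrf1 and Fen1 were above it (at 0.04, 0.04 and 0.01). For Orc6, Tyms, Tk1, Rfc5, Gins4, Mcm2, Uhrf1 and Fen1 the estimate was smaller than its standard error, which ran from 0.17 to 0.26. Estimates of Gins2, Rfc3 and Rfc4 in that setting are not given here. The split did not hold there, and no reversed sign is established.

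The difference between the ends ran with markers of the luminal epithelium. Its zero carries no meaning, since probes differ in brightness, but its order does. It was 0.18 in PyMT replicate 2, 0.09 in PyMT replicate 5 and 0.03 in PyMT/SIRT6 replicate 2, and at the low end −0.72 in PyMT replicate 3, −0.66 in PyMT/SIRT6 replicate 5 and −0.63 in PyMT replicate 6. Against the mean of 14 luminal genes (of 16 listed) it had a Pearson r of 0.807 and a Spearman rho of 0.882 over 11 tumours, and 0.846 without the 2 tumours farthest from the median.

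Luminal means overlapped as the members did, spanning 9.49 to 10.27 in the PyMT group and 9.68 to 10.04 in the other. The mean of the Orc6 end had −0.800 with the luminal mean, and that of the Mcm2 end 0.391. With macrophage markers the difference had −0.585, and the other 11 lists compared stayed between −0.38 and 0.41. The part of luminal or other cells in the pattern was not tested.

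**Figure D4:**
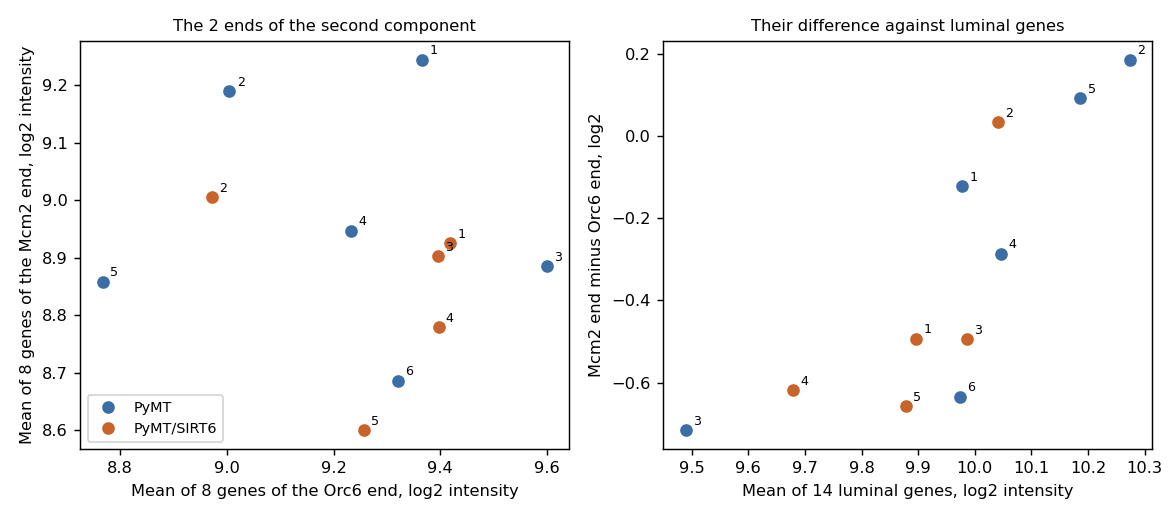
Left, the mean log2 intensity of the 8 Mcm2 end genes (y) against that of the 8 Orc6 end genes (x), and right, the difference of those means (y) against the mean of 14 luminal genes (x). Points are tumours numbered by replicate, PyMT in blue and PyMT/SIRT6 in orange. The left panel shows no common trend (r of −0.166), while the right panel rises from PyMT replicate 3 at −0.72 to PyMT replicate 2 at 0.18.

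Replication genes outside the set were also set against the members. Members were divided by the sign of their weight into 18 on the side of Mcm2 and 15 on the side of Orc6, and of 50 tested replication genes outside the set 22 correlated more with the former and 28 with the latter. Each gene must be nearer to 1 of the sides, so the count does not show that these genes share the split, and the genes named next were picked for their values. The chaperone gene Chaf1b (0.90 with the Mcm2 side and 0.49 with the Orc6 side), the MCM binding gene Mcmbp (0.84 and 0.05) and the checkpoint mediator Clspn (0.79 and −0.10) were on the first. On the second were Tipin, of the fork protection complex (0.28 and 0.90), the single-strand binding subunit Rpa3 (−0.29 and 0.78) and Rbl1, a relative of the retinoblastoma gene (0.44 and 0.93).

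Rfc1, the large subunit of the clamp loader, had 0.67 with the Mcm2 side and −0.40 with the Orc6 side, whereas Rfc3, Rfc4 and Rfc5 lay at the Orc6 end. Of the mitosis genes 11 were nearer the Mcm2 side and 10 nearer the Orc6 side, a count open to the same limit. The kinase genes Plk1 (0.94 and 0.34) and Cdk1 (0.39 and 0.95) stood on opposite sides.

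The mean level of the replication genes followed mitosis genes closely. Of 30 listed mitosis genes 21 were tested, and the mean of these had a Pearson r of 0.983 and a Spearman rho of 0.973 with the replication level over 11 tumours. It was 0.965 without PyMT replicates 1 and 5, the 2 farthest, and 0.994 within the 6 PyMT tumours. Mitosis means were 9.26, 8.91, 9.17, 8.92, 8.61 and 8.77 in PyMT and 9.00, 8.76, 8.94, 8.83 and 8.70 in PyMT/SIRT6 tumours, the same 2 PyMT tumours being highest and PyMT replicate 5 lowest. Each of the 21 genes had an r above 0, from 0.01 to 0.97, where 52.9% of all tested genes outside the members did. Mki67 had no probe under that symbol.

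No mitosis gene passed the genotype test either, with 5 estimates above 0 (23.8%), 16 below and a median of −0.12. Over all features 46.9% were above 0 and the median was −0.01. Top2a, the topoisomerase of dividing cells, was at −0.25 ± 0.15 and the spindle checkpoint gene Bub1b at −0.22 ± 0.13.

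Replication genes outside the set gave the same picture. Of 57 listed, 50 were tested, 15 above 0 (30.0%, against 46.9% of all features) and 35 below. Their median was −0.05, against −0.01 over all features, and 0 passed the adjusted threshold. At an unadjusted limma p under 0.05 there was 1 in each direction, where 2.04% of all features were higher and 2.39% lower. These were Ticrr, needed to activate the helicase (0.06 ± 0.03), and the helicase gene Recql4 (−0.06 ± 0.02), each with an adjusted p of 0.983 in limma's test. Samhd1, which degrades nucleotides, was at −0.22 ± 0.11 and Rfc1 at −0.26 ± 0.13. The mean of the 50 followed that of the members (r 0.968).

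The 9 genes of the G1 cyclins, their kinases and inhibitors followed the members less closely in these 11 tumours. Their mean had an r of 0.466 with the replication level. In all 4 estimates were above 0 (44.4%, against 46.9% of all features) and 5 below, and 0 passed the test. Myc was at −0.09 ± 0.06, the cyclin gene Ccnd2 at −0.24 ± 0.17, and the kinase inhibitor genes Cdkn2c and Cdkn2b at 0.15 ± 0.12 and 0.26 ± 0.29.

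Among all 11336 tested genes outside the set, the 10 most like the replication level included 4 of the mitosis list. The nearest were the mitotic kinase gene Aurkb (r 0.969), the centromere gene Cenpn (0.958), the spindle gene Ckap2 (0.941) and Cdc20 (0.936), an activator of the anaphase-promoting complex. Then came the repair genes Mre11a (0.933) and Blm (0.931), Ndc80 (0.930), Aurka (0.930), Selenoi (0.929), which encodes a phospholipid synthesis enzyme, and the repair ligase Rad18 (0.928). In all 17 genes exceeded 0.9, and 3 fell below −0.9. The lowest were the kinase gene Mapkapk3 (−0.920), Psapl1 (−0.919), the acyl-CoA thioesterase gene Acot6 (−0.908), Reep5 (−0.899) and the protein kinase C gene Prkca (−0.891). Sirt6 itself had −0.04.

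Skeletal muscle markers ran against the replication level. Of 20 listed, 18 were tested, and all 18 had an r below 0, from −0.73 to −0.48. Of all tested genes outside the members 52.9% had an r above 0. Their means were 7.40, 8.48, 7.53, 7.83, 11.87 and 8.44 in PyMT replicates 1 to 6 and 10.04, 7.73, 7.42, 10.79 and 11.55 in PyMT/SIRT6 replicates 1 to 5. The 2 tumours lowest in replication genes, PyMT replicate 5 and PyMT/SIRT6 replicate 5, were the 2 highest in muscle markers, where the actin gene Acta1 spanned 7.37 to 14.54 over all tumours.

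The r of the list mean was −0.700 and rho −0.764. It dropped to −0.389 without those 2 tumours, so much of it rests on them. PyMT/SIRT6 replicate 1, with a muscle mean of 10.04, had the fourth highest replication level, at 8.80. Adipocyte markers (8 of 12 listed tested) had −0.664 and T and NK cell markers (7 of 13) −0.641, while fibroblast (−0.501), macrophage (−0.384), luminal (−0.358), milk (0.197), basal (0.255) and erythroid genes (0.490) were weaker. The part of muscle or other admixed tissue in the members' level was not tested.

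**Figure D5:**
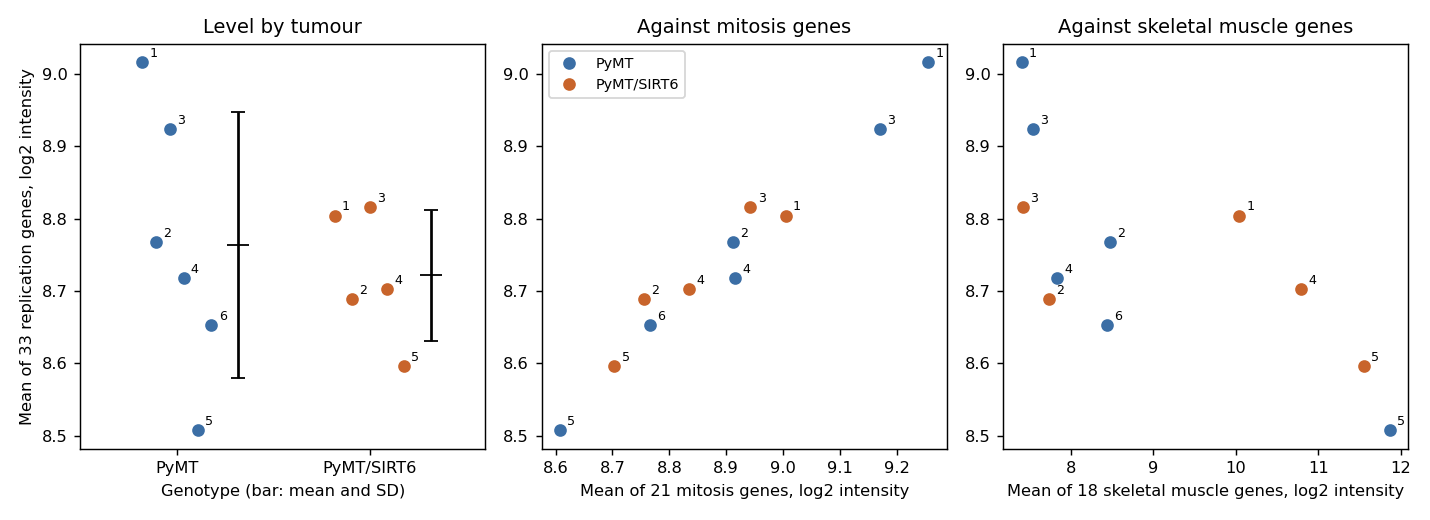
Mean log2 intensity of the 33 tested replication genes in each tumour (y axis of all panels), by genotype with mean and SD (left), against the mean of 21 mitosis genes (middle) and against that of 18 skeletal muscle genes (right). Points are tumours numbered by replicate, PyMT in blue and PyMT/SIRT6 in orange. The genotypes overlap at left, the points rise along a line in the middle (r of 0.983), and the 2 lowest tumours lie at the far right of the muscle panel.

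Promoter sequence was available for 31 of the 38 members in RefSeq (assembly GRCm38.p6), and none is shown for Mcm4, Gins1, Gins2, Gins4, Rfc2, Pole and Ccne2. The 250 bases before each start were searched on both strands for the E2F letters TTTCCCGC, TTTCGCGC, TTTGCCGC and TTTGGCGC. They were found in 9 members (29.0%), namely Mcm5, Mcm6, Mcm7, Cdc6, Orc1, Gins3, Rfc3, Pola1 and Uhrf1, against 2.16% of 27025 genes with a promoter sequence and 3.66% of 9178 tested ones. A gene counted if the window of any of its starts held a match. Mcm7 and Uhrf1 each had another start whose window held none. Of members on the side of Mcm2, 6 of 15 held a match, and of those on the side of Orc6, 1 of 11, Rfc3.

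Other letters were less particular. CCAAT, read by the factor NF-Y, was in 61.3% of members against 40.4% of tested genes, and GGGCGG, read by Sp1, in 67.7% against 61.6%. A match is a run of letters and not a shown binding site, and no match says only that these letters are not in this window.

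Of the 10 members most like the rest in these tumours 8 had a promoter sequence, and 4 of those 8 held an E2F match. These stretches are shown so that the letters can be read beside the genes that varied together. Each is written 5′ to 3′ on the gene's own strand, with 20 bases to each side of the matches, and capitals mark the match, which reads as its reverse complement where it starts with GC. Mcm6 (chr1:128359725-128359835, minus strand) holds 3 matches between 110 and 47 bases before the start, the first 2 of them overlapping. Mcm5 (chr8:75109336-75109387, plus strand) holds 2 overlapping ones that begin 153 and 149 bases before it. Mcm7 (chr5:138172021-138172068, minus strand) and Cdc6 (chr11:98907993-98908040, plus strand) hold 1 each, 165 and 138 bases before it.
Mcm6: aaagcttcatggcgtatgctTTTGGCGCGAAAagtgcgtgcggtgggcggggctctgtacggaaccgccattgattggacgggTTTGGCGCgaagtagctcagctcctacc
Mcm5: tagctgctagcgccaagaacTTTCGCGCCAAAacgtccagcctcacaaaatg
Mcm7: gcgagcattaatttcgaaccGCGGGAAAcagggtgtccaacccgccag
Cdc6: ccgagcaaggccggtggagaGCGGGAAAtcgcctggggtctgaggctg
In these tumours the 4 genes had an r with the other members of 0.879 (Mcm6), 0.828 (Mcm5), 0.840 (Mcm7) and 0.763 (Cdc6), and for each the highest tumour was PyMT replicate 1. The member closest to the rest, Mcm10, held no match in its window.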

How the data were processed

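Per the labels' protocols, biotinylated cRNA from total RNA of 11 mammary tumours was read on Illumina's Mouse WG-6 v2.0 chip. The deposited values are probe intensity on a linear scale, with background treatment and normalization by the authors not given in the sources used here. Because sorted values differed by at most 1.08% between arrays, no scaling was added. Groups came from the genotype label, and replicate numbers follow accession order and pair no samples. Detection p-values were not used, and precision is limited by the number of tumours.

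Of 45281 probes, 34885 had 1 gene symbol in the platform annotation, 18 several and 10378 none, and 34807 were matched to RefSeq (GRCm38.p6) by gene identifier, which changed 0 symbols. The probe with the highest mean stood for each gene, intensities were put on the log2 scale, and the lower 50% of 29453 features were left out, a mean log2 of 7.31 or less. PyMT/SIRT6 was compared with PyMT over 14727 features with limma 3.58.1 in R 4.3.3 (lmFit, eBayes with trend), with Benjamini-Hochberg adjustment over all of them and a threshold of 0.05, and ± is limma's standard error unless SD is written. The fit was tested on simulated data with independent noise, in which 67, 67 and 66 features were altered by 0.5, 1 and 2. It recovered 61.2% of those altered by 0.5 and 92.5% of those altered by 1. Many altered features make the adjusted threshold easier to pass than in the real data, where 2 of 14727 passed. These rates are therefore not the chance of finding such a change among the members. The members and lists were chosen with earlier results of these data known. Values are given for the 4 members of smallest unadjusted p in each direction, the 4 of largest SD, Pcna and Mcm2. They are also given for the members most and least like the rest in each role. For PyMT tumours these are the lowest, median and highest, and for PyMT/SIRT6 tumours each value. Pcna has only its range over all tumours. From each other list up to 4 genes of smallest p were drawn, and genes quoted for their correlation with the sides were chosen after their values were seen. Lists are described by counts and medians, and correlations without p.

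Alternatives were other filters, other ways of combining probes, quantile normalization, median centring and subtraction of the lowest intensity. Further ones were other eBayes settings, array weights, marker lists as covariates and leaving out single arrays. Leaving out the 4 arrays with a skeletal muscle mean above 9 was chosen after seeing the data. It left only replicates 2 and 3 of PyMT/SIRT6.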

Additional observations from a re-analysis of the deposited data

Results flagged for a closer look

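In 68 groups of 5 or 6 tumours, 4 members had a tumour farther from the others than Dixon's 95% limit allows, where chance gives about 3.4 (1 in 20). The helicase gene Gins3 was lowest in PyMT replicate 2, at 7.36 with the nearest PyMT tumour at 7.41. The clamp loader gene Rfc4 was lowest in PyMT/SIRT6 replicate 2, at 7.91 with the nearest at 8.53, a tumour also low in other genes of the Orc6 end. The ribonucleotide reductase gene Rrm2 was highest in PyMT/SIRT6 replicate 3, at 8.76 with the nearest at 8.17. The histone chaperone gene Chaf1a was lowest in PyMT/SIRT6 replicate 5, at 7.60 with the nearest at 7.88, and that tumour had the second highest mean of skeletal muscle markers.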

How the results depend on the processing

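No member passed the adjusted threshold in any of the 26 alternatives run, where the smallest adjusted p was 0.527, with array weights. At an unadjusted limma p under 0.05 the count was 2 with the mean of a gene's probes (Dut and Gins3). It was 1 with every probe tested separately (Mcm10, at −0.05 for the used probe and −0.16 for a dimmer one). With array weights it was also 1 (Gins3), and it was 0 to 1 when single tumours were left out. Over all features the share at that p was 4.43% in the main setting, and it is not given here for the alternatives. The count of members above 0 was 17 with the skeletal muscle covariate (51.5%, against 47.7% of all features). It was 5 with the luminal covariate (15.2% against 47.2%) and 6 without the 4 tumours high in muscle markers (18.2% against 48.9%). When single tumours were left out it was 4 to 17, with 45.7% to 47.4% of all features above 0. The median change then ran from −0.11 to 0.00, and the difference in mean level from −0.09 to 0.01. The median r between members was 0.296 to 0.482 when single tumours were left out, 0.362 with no filter, 0.509 with the lower 75% of features left out and 0.357 by Spearman's rho. Of the 33 members 13 kept their sign in every alternative run and 20 did not.

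Without the 4 tumours high in muscle markers, Mcm2 was at 0.041, Uhrf1 at 0.036, Fen1 at 0.014 and Gins4 at −0.038. Orc6 was at −0.22, Rfc5 at −0.035, Tyms at −0.22 and Tk1 at −0.065. Each of these estimates was smaller than its standard error, with only replicates 2 and 3 of PyMT/SIRT6 left. With the luminal covariate Orc6 was at −0.048, Tyms at −0.035 and Tk1 at −0.020. With the muscle covariate Mcm10 was at 0.028 and Ccne2 at 0.020, and with array weights Ccne2 was at 0.031. Leaving out single tumours moved Ccne2 from −0.109 to 0.056, E2f1 from −0.0074 to 0.106, Mcm10 from −0.135 to 0.057, Orc6 from −0.053 to 0.203, Rfc2 from −0.026 to 0.094, Tk1 from −0.023 to 0.243 and Tyms from −0.075 to 0.181. The cause of these reversals was not tested. Sirt6 passed the adjusted threshold with no filter, with the lower 25% or 75% left out, with every probe tested separately, with robust eBayes and with the luminal covariate (0.61 each), with the mean of its probes (0.46), with the lowest intensity subtracted (0.98), with array weights (0.55), and with the muscle (0.65) or adipocyte covariate (0.59). It did not pass when any single tumour was left out (0.54 to 0.65, limma adjusted p 0.0549 to 0.256) or with eBayes without trend (0.61, adjusted p = 0.0758). Nor did it pass with quantile normalization (0.61, limma adjusted p = 0.05737) or median centring (0.61, adjusted p = 0.05765). Without the 4 tumours high in muscle markers it did not pass either (0.69, limma adjusted p = 0.581). No paired analysis was possible because the labels carry no replicate numbers. Dim probes limit what can be read, above all for the 5 members below the filter limit.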
